A study of Mus musculus with 12 samples.

Results

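The 10 genes described here encode the main glucose and related sugar carriers known from the mammalian kidney: the sodium-coupled carriers Slc5a1, Slc5a2, Slc5a9 and Slc5a10 and the facilitative carriers Slc2a1, Slc2a2, Slc2a4, Slc2a5, Slc2a9 and Slc2a12. They were taken by name from a table of 55421 genes, and all 10 were among the 18461 genes that passed the filter on low counts. The set was proposed with earlier results of these data known. RNA of renal cortex was sequenced from male mice, 3 in each of 4 groups: non-diabetic wild type (WT-C), diabetic wild type (WT-D), non-diabetic ANRIL knockout (KO-C) and diabetic ANRIL knockout (KO-D). Diabetes was induced with streptozotocin, which destroys pancreatic beta cells, given intraperitoneally at 50 mg/kg on 5 days in a row and followed for 2 months. Control littermates received citrate buffer, so the drug and the high glucose that follows it cannot be told apart. The age label is 8 weeks for every mouse. The strain label 129S6/SvEvTac-Del[4C4-C5]1Lap/Mmcd stands on all 12 samples, and the genotype label separates the wild type from the knockout. The knockout is a germline deletion of noncoding DNA next to the Ink4 genes on chromosome 4, so it is carried by every cell of the mouse and is not particular to the kidney.

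Glucose is filtered freely at the glomerulus and is taken back almost completely by the proximal tubule. SGLT2, encoded by Slc5a2, carries the bulk of it across the apical membrane of the early proximal tubule, and SGLT1, encoded by Slc5a1, takes up what is left further along. Both use the sodium gradient that the Na,K-ATPase maintains. Glucose then leaves the cell towards the blood through the facilitative carriers GLUT2 (Slc2a2) and GLUT1 (Slc2a1). The other carriers of the group serve mannose and fructose, urate, or insulin-regulated glucose uptake. SGLT2 is the target of the gliflozins, drugs that lower blood glucose by making the kidney excrete it.

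The libraries held 23781928 to 67336174 counted reads, and values are given as counts per 1000000 counted reads (CPM) after scaling between libraries with TMM factors of 0.737 to 1.28. The knockout itself could not be checked in these values: the noncoding genes annotated next to Cdkn2b (Gm12606, Gm12608, Gm12609, Gm12610 and Gm27580) had at most 1 read each in any wild-type library. In the knockout libraries they had at most 1 as well, except Gm12609, which had 6 in KO-D replicate 2. Cdkn2b had 16 to 165 reads in the wild-type libraries and 1 to 101 in the knockout libraries. All 6 markers of the proximal tubule that were examined passed the filter, with a summed level of 2577 to 8536 CPM. On the first principal component, which held 50.9% of the variance, controls lay between -65.4 and -33.0 and diabetic libraries between 47.9 and 66.0, except WT-D replicate 3 at 5.92. WT-C replicate 1 and KO-D replicate 2 had the lowest level of Slc5a12, a lactate carrier of the early proximal tubule, at 24.5 and 18.9 CPM against 49.0 to 196 CPM in the other 10 libraries. Calls with diabetes that were gained or lost without either library are given both ways.

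Differences were tested with limma on log2(CPM + 0.1) across all 18461 genes, with Benjamini-Hochberg adjustment within a comparison, and a gene is called at an adjusted p under 0.05. With diabetes in the wild type, 1 of the 10 transporters was called, Slc5a9, which was higher, and 22% of all tested genes were called, 13.7% as higher and 8.22% as lower. With diabetes in the knockout 3 were called, Slc5a2, Slc5a10 and Slc2a5, and all 3 were lower. In that comparison 31.1% of all genes were called, 13.6% as higher and 17.4% as lower. With the effect of diabetes averaged over both genotypes 4 were called, Slc5a9 and Slc2a9 as higher and Slc5a2 and Slc2a5 as lower, where 43.5% of all genes were called, 21.9% as higher and 21.6% as lower. The groups did not overlap for 2 of the 10 in the wild type, Slc5a9 and Slc2a9, and for Slc5a2, Slc5a10 and Slc2a5 in the knockout, as for 36.7% and 48.0% of all genes. In none of these 3 comparisons was the transporters' share of calls above that of all genes. The median log2 change of the 10 was 0.15 in the wild type and -0.23 in the knockout, and that of all genes was 0.05 and 0.02.

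No transporter was called for the knockout by itself. Between KO-C and WT-C limma called 0 of the 10 and 0% of all genes, and at an unadjusted p under 0.05 it had 0 of the 10 and 8.37% of all genes. Tests of recovered reads with edgeR and DESeq2 also called 0 of the 10 there, and 0 and 9 of all 18461 genes. Between the diabetic groups, KO-D against WT-D, 2 transporters were called, Slc5a10 and Slc2a5, both lower in KO-D, with 5.53% of all genes called, 0.103% as higher and 5.43% as lower. Between KO-D and WT-C, which share no treatment or genotype, 4 were called, with Slc5a9 higher and Slc5a2, Slc5a10 and Slc2a5 lower, and 40.1% of all genes called, 19.4% as higher and 20.7% as lower. Without KO-D replicate 2 that comparison also called Slc2a9 (0.74, adjusted p = 0.0198) as higher and Slc2a1 (-0.68, adjusted p = 0.0453) as lower. Its call of Slc5a9 was kept in 5 of 12 fits with a library left out. The call was lost without WT-C replicate 1 (0.39, adjusted p = 0.167) or KO-D replicate 3 (0.35, adjusted p = 0.205). It was also lost without WT-C replicate 3, WT-D replicate 1 or any KO-C replicate. These comparisons share groups with those above and are not separate evidence. When the diabetes effect itself was compared between knockout and wild type, limma called 0 of the 10 and 0% of all genes. The same count of 0 of the 10 came from edgeR and DESeq2, which called 0 and 685 of all 18461 genes. In limma 3 of the 10 had an unadjusted p under 0.05, with 14.6% of all genes. At an adjusted p under 0.01 a single transporter remained, Slc2a5, in the knockout (17.1% of all genes), on average (28.2%) and in KO-D against WT-C (23.4%), and 0 remained in the wild type (8.33%) and between KO-D and WT-D (0%).

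**Figure D1:**
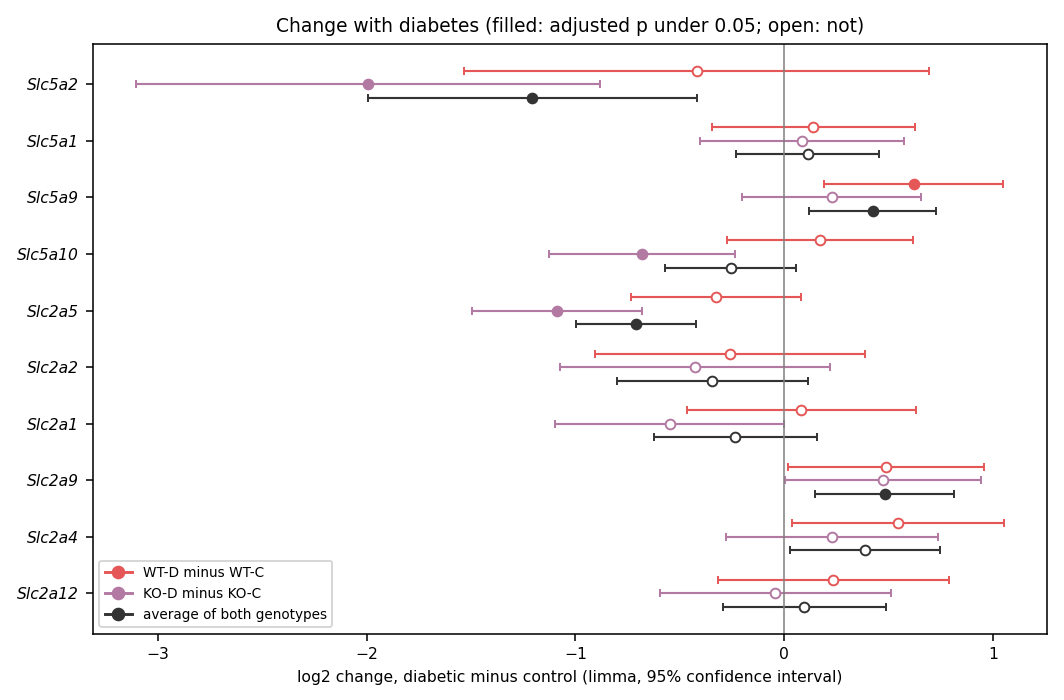
The log2 change of each transporter gene with diabetes, diabetic minus control, with its 95% confidence interval from limma, in the wild type (red), the knockout (purple) and averaged over both (black). Filled points passed an adjusted p of 0.05 and open points did not: Slc5a2, Slc5a10 and Slc2a5 lie below 0 in the knockout, and Slc5a9 lies above 0 in the wild type.

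Levels of different genes were compared per kilobase of merged exon. In WT-C the highest was Slc5a10 at 57.6 ± 11.6 CPM per kilobase (mean ± SD, n = 3), followed by Slc5a2 at 36.2 ± 16.6, Slc2a5 at 34.6 ± 6.82 and Slc2a2 at 23.5 ± 7.76. The range of Slc5a2 overlapped those of Slc5a10, Slc2a5 and Slc2a2, so its place among them is not settled by 3 mice. The ranges of Slc5a10 and Slc2a5 did not overlap, nor did those of Slc2a5 and Slc2a2. Below them came Slc5a1 at 14.2 ± 2.73, whose range overlapped that of Slc2a2, then Slc2a4 at 7.39 ± 2.35 and Slc2a1 at 6.73 ± 1.93 CPM per kilobase, which overlapped each other. Slc5a9 at 2.75 ± 0.547, Slc2a9 at 1.93 ± 0.310 and Slc2a12 at 1.75 ± 0.586 were the lowest. In KO-D the order among the most abundant carriers differed: Slc2a2 stood next after Slc5a10, with Slc2a5 and Slc5a2 below it at 16.7 ± 2.51 and 15.5 ± 11.1 CPM per kilobase. The ranges of Slc2a2, Slc2a5, Slc5a2 and Slc5a1 overlapped from each to the next in that group.

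**Figure D2:**
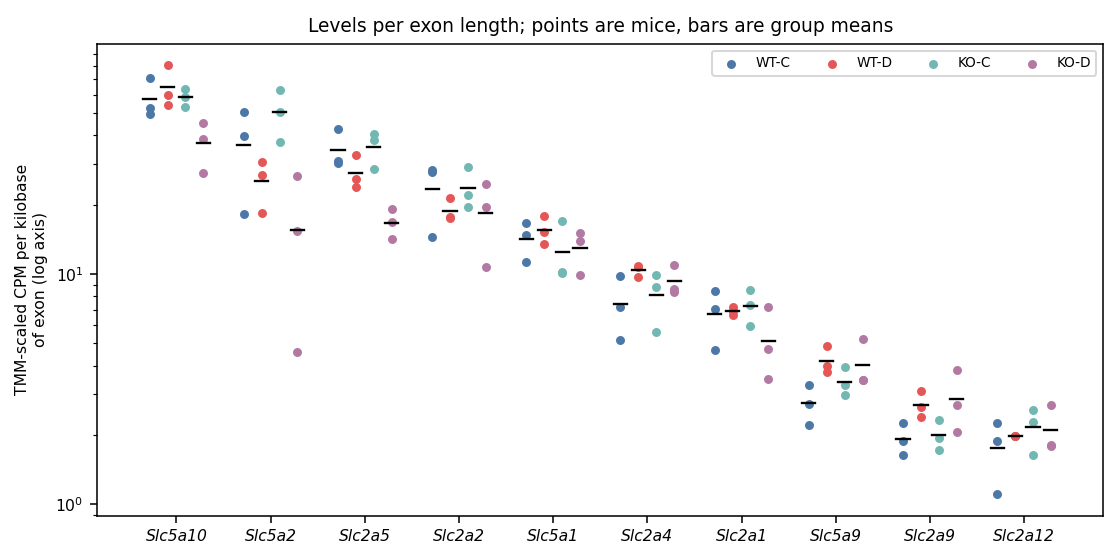
TMM-scaled CPM per kilobase of merged exon (log axis) for the 10 transporter genes, ordered by their mean in WT-C. Points are mice coloured by group and bars are group means: Slc5a10 is highest in every group, and Slc5a2 spreads widest, with 1 KO-D mouse at 4.58.

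Slc5a2 (ENSMUSG00000030781, mm10 chromosome 7, positions 128265657 to 128272430, plus strand), the gene of SGLT2, was lower in the diabetic knockout. The WT-C libraries had 52.6, 115 and 147 CPM and the WT-D libraries 89.2, 53.1 and 78.3 CPM, and these groups overlapped. In KO-C it had 109, 147 and 182 CPM. In KO-D it had 77.4, 13.3 and 44.3 CPM, each below every KO-C library. The change in the knockout was -1.99 (SE 0.52) on the log2 scale, to 0.251 of the control level, with a 95% interval of -3.11 to -0.88 and a limma adjusted p of 0.0106. Replicate 2 of KO-D carried much of this size: without it the change was -1.28 with an adjusted p of 0.0304. In the wild type the change was -0.42 (SE 0.52) with an interval of -1.53 to 0.69, which holds both no change and a drop as large as 1.53. It was -0.88 (adjusted p = 0.0540) without WT-C replicate 1 and KO-D replicate 2. Averaged over genotypes Slc5a2 fell by 1.21 (adjusted p = 0.0169), and by 0.85 without KO-D replicate 2 (adjusted p = 0.0219). The call of the average was lost without scaling between libraries (-0.84, adjusted p = 0.0662), a setting that puts the median change of all genes at 0.36. The difference between the genotypes was -1.57 (SE 0.73), with an unadjusted p of 0.0498 and an adjusted p of 0.343, so a larger fall in the knockout was not established. Against WT-C, KO-D was lower by -1.43 (adjusted p = 0.0419), a call kept in 5 of 12 fits with a library left out and lost without KO-D replicate 2 (-0.72, adjusted p = 0.176). It was also lost with edgeR (adjusted p = 0.0639), with DESeq2 (adjusted p = 0.0863) and without scaling (-0.89, adjusted p = 0.157).

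In bulk tissue, fewer cells of a type and less RNA per cell cannot be told apart. As a sum, markers of the proximal tubule moved with Slc5a2 in the knockout. The summed level of the 6 proximal tubule markers was 6274 to 8536 CPM in KO-C and 2577 to 4064 CPM in KO-D, and 4440 to 6852 CPM in WT-C and 3705 to 4599 CPM in WT-D. The library lowest in Slc5a2, KO-D replicate 2, was also the lowest of all in that sum. Slc34a1 was the largest part of the sum in KO-C, at 2761 to 3421 CPM. Slc4a4 by itself overlapped, at 370 to 713 CPM in KO-C and 185 to 589 CPM in KO-D. As a sum the 3 markers of the early segment behaved otherwise. That sum was 174 to 343 CPM in KO-C and 90.4 to 252 CPM in KO-D, with overlap. Of the KO-D sums only that of replicate 2 lay below KO-C. Slc5a12 and Slc7a8 by themselves overlapped as well. Slc7a7 did not, at 73.5 to 113 CPM in KO-C and 44.2 to 69.2 CPM in KO-D. The 4 markers of the late segment (Slc7a13, Slc22a7, Cyp7b1 and Acy3) summed to 3576 to 4229 CPM in KO-C and 1074 to 1570 CPM in KO-D, and to 3826 to 4251 CPM in WT-C and 1531 to 2952 CPM in WT-D, without overlap in either genotype. KO-D replicate 2, the lowest in Slc5a2, was the highest of the KO-D libraries in that sum. Acy3 made up most of the late-segment sum in KO-C, at 2519 to 2846 CPM. Cyp7b1 by itself overlapped in both genotypes. It was 265 to 301 CPM in KO-C and 4.42 to 385 CPM in KO-D, and 253 to 517 CPM in WT-C and 204 to 344 CPM in WT-D. The part of tubule cell number in the fall of Slc5a2 was not tested. A total of 20.6% of the exon bases of Slc5a2 also lie in exons of BC017158 on the opposite strand, and the library kit keeps no strand. BC017158 itself was at 6.66 to 11.1 CPM in all libraries. It fell by 0.49 in the knockout with diabetes (adjusted p = 0.0230), and in KO-D replicate 2 its 7.72 CPM came close to the 13.3 CPM of Slc5a2.

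Slc5a1 (ENSMUSG00000011034, chromosome 5, 33104219 to 33162870, plus strand), the gene of SGLT1, did not pass the test in any comparison. It had 60.6, 68.2 and 46.1 CPM in WT-C and 55.5, 62.2 and 73.7 CPM in WT-D. In KO-C it had 42.0, 41.4 and 69.4 CPM, and in KO-D 40.7, 61.8 and 57.2 CPM. The groups overlapped throughout. The averaged change with diabetes was 0.11 with a 95% interval of -0.23 to 0.46, so changes of more than 0.46 upwards or 0.23 downwards on the log2 scale lie outside it. Without scaling between libraries Slc5a1 was called as higher (0.48, adjusted p = 0.0397).

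The balance between the sodium-coupled carriers was followed as a ratio within each library, which scaling between libraries alters only through the 0.1 added to each level. The log2 ratio of Slc5a1 to Slc5a2 was 0.20, -0.75 and -1.67 in WT-C and -0.68, 0.23 and -0.09 in WT-D. The KO-C libraries had -1.37, -1.82 and -1.39, and the KO-D libraries -0.92, 2.21 and 0.37. Every KO-D library lay above every KO-C library, and the wild-type groups overlapped. Averaged over the genotypes, the ratio was 1.32 higher with diabetes on the log2 scale (exact permutation test within genotype, two-sided, 400 arrangements, p = 0.03, adjusted over 3 ratios p = 0.045, n = 3 per group). The difference was 0.56 in the wild type and 2.08 in the knockout. It was 0.90 without KO-D replicate 2, with an adjusted exact p of 0.06. The adjusted exact p was also above 0.05, at 0.0825 to 0.1275, without WT-C replicate 2 or 3, WT-D replicate 2 or 3, or any of the KO-C replicates, with differences of 1.09 to 1.36. Most of the averaged difference of 1.32 is the averaged change of Slc5a2, -1.21, in the same libraries. The ratio is therefore not evidence separate from that change.

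Slc5a9 (ENSMUSG00000028544, chromosome 4, 111875375 to 111902918, minus strand) encodes SGLT4, a sodium-coupled carrier that prefers mannose and also takes glucose and fructose. It had 11.5, 17.1 and 14.1 CPM in WT-C and 20.7, 25.2 and 19.5 CPM in WT-D, and every WT-D library was above every WT-C library. The change was 0.62 (SE 0.20, adjusted p = 0.0411), or 1.54 times the control level. Marker sums of other cell types separated the same groups without overlap. For the distal convoluted tubule the sum went from 432 to 531 CPM in WT-C to 1093 to 1373 CPM in WT-D. For podocytes it went from 37.2 to 86.6 CPM to 115 to 199 CPM. For endothelium it went from 66.1 to 110 CPM to 150 to 223 CPM. Of the single markers Pvalb and Wt1 overlapped. Pvalb had 89.8 CPM in WT-C replicate 1 and 88.0 CPM in WT-D replicate 1. Wt1 had 3.23 CPM in WT-C replicate 3 and 2.99 CPM in WT-D replicate 3. The part of these markers in the result was not tested. In KO-C Slc5a9 had 15.5, 20.5 and 17.0 CPM and in KO-D 17.9, 18.0 and 27.0 CPM, with a change of 0.23 (adjusted p = 0.415) and overlapping ranges. The same marker sums separated KO-D from KO-C without overlap as well. They were 486 to 625 CPM in KO-C and 1143 to 2486 CPM in KO-D for the distal convoluted tubule. For podocytes they were 67.5 to 77.1 and 147 to 193 CPM, and for endothelium 82.9 to 153 and 161 to 222 CPM. Of the single markers Cdh5 and Emcn of endothelium overlapped there. In KO-C replicate 1 they had 12.4 and 60.5 CPM, and in KO-D replicate 1 they had 10.1 and 44.1 CPM. The averaged change of Slc5a9 was 0.42 (adjusted p = 0.0271). These calls were near the threshold. Without WT-C replicate 1 the wild-type change was 0.44 (adjusted p = 0.167) and the averaged one 0.35 (adjusted p = 0.0617). The wild-type call was kept in 6 of 12 fits with a library left out and was also lost without WT-C replicate 3, WT-D replicate 1 or 2, or KO-C replicate 1 or 2. The averaged call was kept in 7 of 12 and was also lost without WT-D replicate 2, KO-C replicate 1 or 3, or KO-D replicate 3 (0.32, adjusted p = 0.0761).

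Slc5a10 (ENSMUSG00000042371, chromosome 11, 61672781 to 61720826, minus strand) encodes SGLT5, a mannose and fructose carrier of the proximal tubule. Besides Slc2a5 it was the one transporter of the 10 called between the diabetic groups. WT-C libraries had 124, 168 and 117 CPM and WT-D libraries 128, 142 and 191 CPM. KO-C libraries had 125, 139 and 151 CPM and KO-D libraries 65.1, 107 and 91.2 CPM. All 3 KO-D libraries were below all libraries of the other 3 groups. The marker sums given above for the whole proximal tubule and its late segment were also lower in every KO-D than in every KO-C library. In the wild type the late-segment sum was lower too, at 1531 to 2952 CPM in WT-D against 3826 to 4251 CPM in WT-C. Slc5a10 was not lower there. The part of these markers in the result was not tested. The change of Slc5a10 with diabetes in the knockout was -0.68 (SE 0.21, adjusted p = 0.0235), or 0.623 of the control level, and in the wild type it was 0.17 (SE 0.21, adjusted p = 0.575). KO-D was below WT-D by -0.82 (adjusted p = 0.0375). The difference of the diabetes effect was -0.85 (SE 0.29), with an unadjusted p of 0.0117 and an adjusted p of 0.180. The knockout call was lost with upper-quartile scaling (-0.54, adjusted p = 0.0570), without scaling (-0.34, adjusted p = 0.267) and without KO-D replicate 1 (-0.49, adjusted p = 0.0957), KO-C replicate 2 (adjusted p = 0.0836), KO-C replicate 3 (adjusted p = 0.0707) or KO-D replicate 3 (adjusted p = 0.0515). The call against WT-D was kept in 5 of 12 fits with a library left out, where the change was -0.97 to -0.62, and was lost without any of WT-C replicate 3, WT-D replicates 1 and 3, KO-C replicates 1 and 2 and KO-D replicates 1 and 3. Fam83g, on the other strand, holds 16.6% of the exon bases of Slc5a10, and its level was 2.79 to 6.35 CPM in the 12 libraries.

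Slc2a5 (ENSMUSG00000028976, chromosome 4, 150119283 to 150144169, plus strand) encodes GLUT5, the facilitative fructose carrier of the apical membrane, and had the smallest p of the 10 in the knockout. It had 106, 144 and 103 CPM in WT-C and 81.4, 87.8 and 112 CPM in WT-D. In KO-C it had 97.1, 138 and 130.1 CPM. In KO-D it had 48.2, 65.3 and 57.2 CPM, below every library of the other 3 groups. As a sum the late proximal tubule markers moved with it, though Cyp7b1 by itself overlapped, as given above. The sum was 1074 to 1570 CPM in KO-D, 1531 to 2952 CPM in WT-D and 3576 to 4251 CPM in the controls. The part of these markers in the result was not tested. The change of Slc2a5 in the knockout was -1.09 (SE 0.19, 95% interval -1.50 to -0.68, adjusted p = 9.82e-04), to 0.470 of the control level. It passed the test with each library left out in turn, where it ranged from -1.20 to -0.95, and without scaling (-0.75, adjusted p = 0.0192). In the wild type the change was -0.33 (SE 0.19, adjusted p = 0.224), and 2 of 3 WT-D libraries were below all WT-C libraries. The averaged change was -0.71 (adjusted p = 0.00102), and was not called without scaling (-0.34, adjusted p = 0.0743). KO-D was below WT-D by -0.72 (adjusted p = 0.0441). That call was kept in 2 of 12 fits with a library left out, without WT-C replicate 2 and without KO-D replicate 2, and it was lost with RLE scaling (-0.68, adjusted p = 0.0602). The difference of the diabetes effect was -0.76 (SE 0.27, unadjusted p = 0.0130, adjusted p = 0.190).

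**Figure D3:**
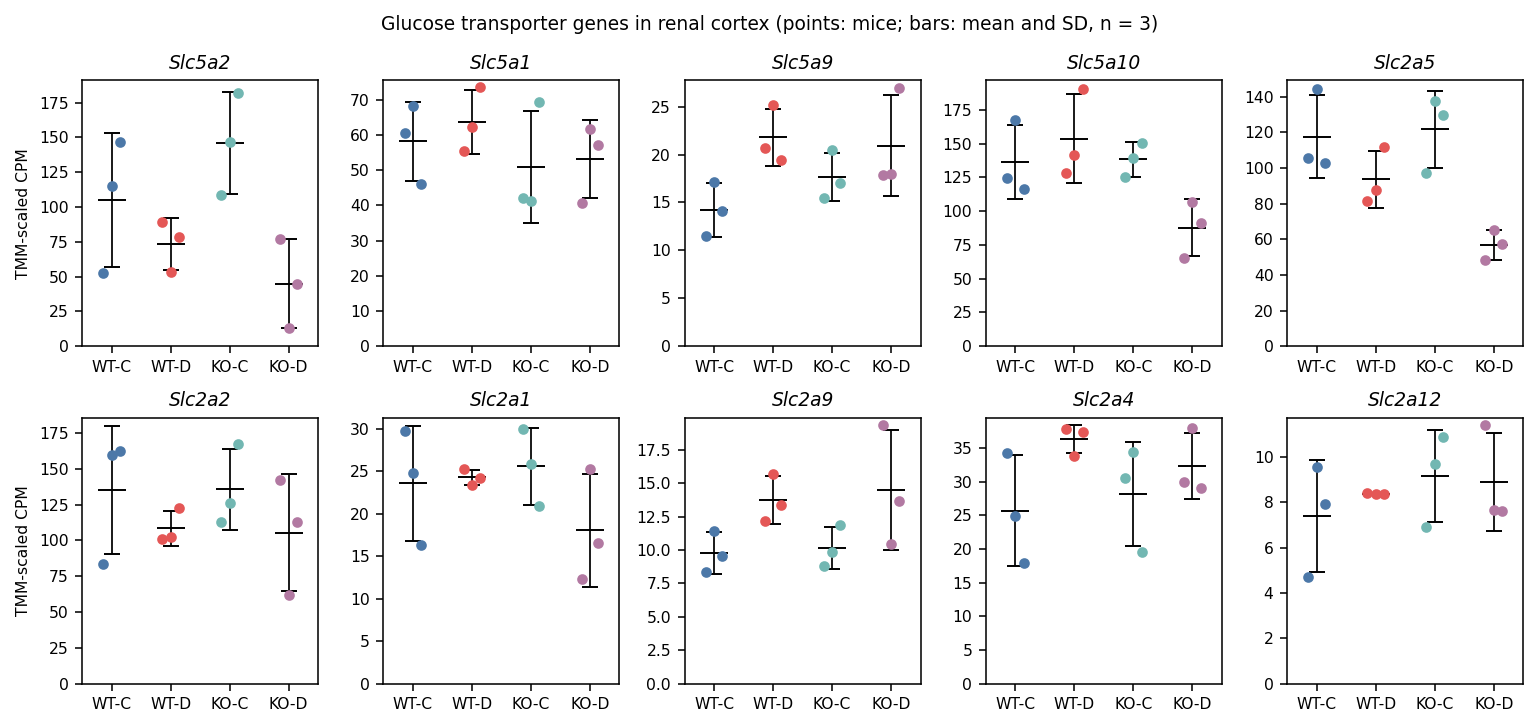
TMM-scaled CPM of the 10 transporter genes in each mouse by group, with bars for the mean and SD of 3 mice. Slc2a5 in KO-D, at 48.2 to 65.3, and Slc5a10 in KO-D, at 65.1 to 107, lie below all other groups, and Slc5a2 in KO-D spreads from 13.3 to 77.4.

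Slc5a10 and Slc2a5 are the transporters lower in KO-D for which RefSeq's promoter table has an entry, and their sequences are shown because these are the genes called as lower in KO-D against both KO-C and WT-D. In the wild type their changes with diabetes differed in sign, 0.17 and -0.33, and neither passed the test. There is no entry for Slc5a2, Slc5a9 and Slc2a4. The sequences are of the GRCm38.p6 build (mm10) and end at the base before the gene's first annotated base, printed 5′ to 3′ on the gene's strand. The capitals mark matches on either strand to GGGCGG, the GC box, which were found in Slc2a5 and not in Slc5a10.
Slc5a10, chr11:61720827-61721049, minus strand: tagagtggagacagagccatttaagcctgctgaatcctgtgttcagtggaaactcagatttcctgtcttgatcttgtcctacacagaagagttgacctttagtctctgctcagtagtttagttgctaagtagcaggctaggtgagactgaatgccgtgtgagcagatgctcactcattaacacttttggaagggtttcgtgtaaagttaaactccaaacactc
Slc2a5, chr4:150119094-150119282, plus strand: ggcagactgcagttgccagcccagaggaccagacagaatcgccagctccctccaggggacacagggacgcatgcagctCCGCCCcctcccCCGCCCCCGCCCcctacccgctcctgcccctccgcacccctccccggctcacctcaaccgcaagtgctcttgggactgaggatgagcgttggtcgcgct
The Slc5a10 stretch of 223 bases held no GC box, which 28.9% of promoter windows of that length hold. The Slc2a5 stretch of 189 bases held 3, and 22.6% of windows of that length hold at least 1. The E-box CACGTG, searched on both strands, was in neither. No match overlaps another. A match is a description of the letters and not of a bound site.

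Slc2a2 (ENSMUSG00000027690, chromosome 3, 28697903 to 28731359, plus strand), the gene of GLUT2, was not called in any comparison. It had 83.7, 159.8 and 162 CPM in WT-C and 101, 102 and 122 CPM in WT-D. In KO-C it had 113, 126 and 168 CPM, and in KO-D 142, 61.6 and 113 CPM. The ranges overlapped, and the lowest control and the lowest diabetic library were WT-C replicate 1 and KO-D replicate 2. The averaged change was -0.34 (SE 0.21, adjusted p = 0.205). Without WT-C replicate 1 it was -0.50 and just passed the test (adjusted p = 0.0499), and without both of these libraries the change in the wild type was -0.61 (adjusted p = 0.0394). The log2 ratio of Slc5a2 to Slc2a2 within a library, apical uptake over basolateral exit, was -0.67, -0.48 and -0.14 in WT-C and -0.18, -0.94 and -0.64 in WT-D. It was -0.06, 0.21 and 0.12 in KO-C and -0.88, -2.21 and -1.34 in KO-D, where no KO-D library reached any KO-C library. Averaged over genotypes the ratio was lower with diabetes by -0.86 (exact permutation test, two-sided, p = 0.03, adjusted p = 0.045). The difference was -0.16 in the wild type and -1.57 in the knockout. Without KO-D replicate 2 it was -0.68 (adjusted exact p = 0.06). Leaving out any of the other 7 libraries that ended the call of the first ratio ended this one as well. Both ratios hold Slc5a2 and their p-values were adjusted together, so these losses are not separate results. Without WT-C replicate 2 the exact permutation p of this ratio was 0.03 and the adjusted p 0.0825.

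Slc2a1 (ENSMUSG00000028645, chromosome 4, 119108711 to 119137983, plus strand), the gene of GLUT1, a carrier of most cell types that serves the later proximal tubule and distal segments, was not called either. It had 29.7, 24.7 and 16.3 CPM in WT-C and 25.2, 23.4 and 24.2 CPM in WT-D. In KO-C it had 30.0, 25.8 and 20.9 CPM, and in KO-D 12.3, 25.3 and 16.6 CPM. In KO-D 2 of 3 libraries were below all KO-C libraries and replicate 2 was not. The change in the knockout was -0.55 (SE 0.26, unadjusted p = 0.0502, adjusted p = 0.119). Without KO-D replicate 2 it was -0.82 and was called (adjusted p = 0.0241). In 4 of 4 groups the library lowest in Slc2a2 was the highest in Slc2a1. In 3 of 4 the library highest in Slc2a2 was the lowest in Slc2a1. Within WT-D the first order rested on close values, 101 and 102 CPM of Slc2a2 and 25.2 and 24.2 CPM of Slc2a1 in replicates 1 and 2 and replicates 1 and 3. Other pairs of genes were not counted, so these orders do not show that the pair runs opposite. The log2 ratio of Slc2a1 to Slc2a2 was 0.11 higher with diabetes (exact permutation test, two-sided, p = 0.81, adjusted p = 0.81). Its SD was 0.92 in WT-C and 0.17 in WT-D, and 0.55 and 1.14 in the knockout groups KO-C and KO-D, and the change is smaller than each of these.

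**Figure D4:**
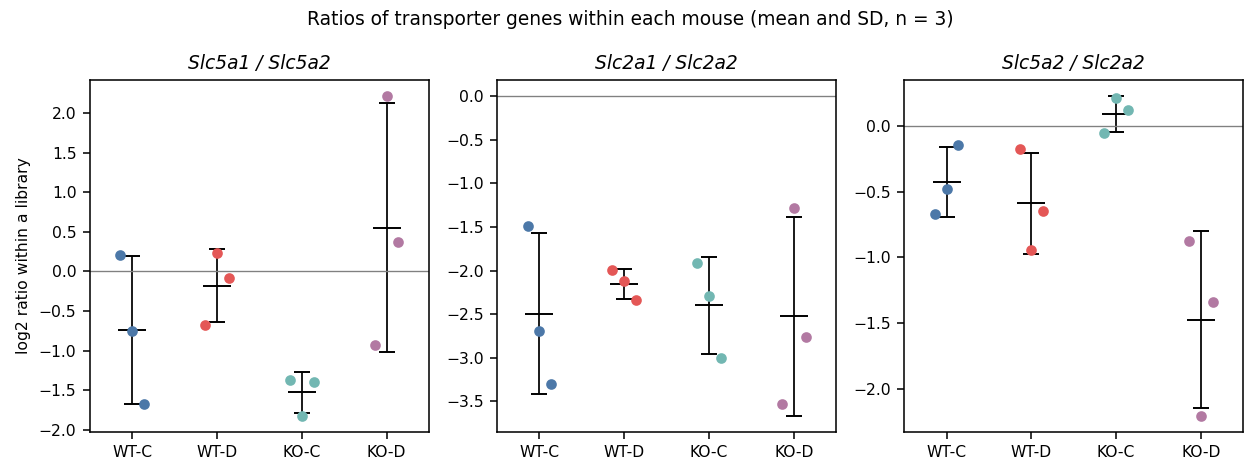
Log2 ratios of transporter genes within each library, by group, with bars for the mean and SD of 3 mice. Slc5a1 over Slc5a2 is above KO-C in all 3 KO-D mice and Slc5a2 over Slc2a2 is below KO-C in all 3, and Slc2a1 over Slc2a2 overlaps in all 4 groups.

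Slc2a9 (ENSMUSG00000005107, chromosome 5, 38349273 to 38503143, minus strand) encodes GLUT9, which transports urate and little glucose. It had 8.34, 11.5 and 9.58 CPM in WT-C and 12.1, 15.7 and 13.4 CPM in WT-D, without overlap. In KO-C it had 8.77, 9.87 and 11.8 CPM and in KO-D 19.4, 10.4 and 13.7 CPM, where replicate 2 fell within the control range. The changes were 0.49 (adjusted p = 0.119) in the wild type and 0.47 (adjusted p = 0.115) in the knockout, and their difference was -0.02 with an interval of -0.68 to 0.65. Without KO-D replicate 2 the knockout change was 0.68 and was called (adjusted p = 0.0339), as it was with upper-quartile scaling (0.61, adjusted p = 0.0426) and without scaling (0.81, adjusted p = 0.0223). The wild-type change was called without scaling as well (0.87, adjusted p = 0.0193). The average of 0.48 (SE 0.15, 1.40 times the control level) passed the test (adjusted p = 0.0222). It did not without WT-D replicate 2 (0.43, adjusted p = 0.0608), KO-C replicate 1 (0.45, adjusted p = 0.0508) or KO-D replicate 1 (0.36, adjusted p = 0.0540). The summed level of the 3 distal convoluted tubule markers moved with it, at 432 to 625 CPM in the controls and 1093 to 2486 CPM in the diabetic libraries. Of these markers Pvalb by itself overlapped, with 89.8 CPM in WT-C replicate 1 and 88.0 CPM in WT-D replicate 1. Among the KO-D libraries replicate 1 was highest and replicate 2 lowest in both that sum and Slc2a9. Among the KO-C libraries replicate 3 was highest and replicate 1 lowest in both. The wild-type groups differed. In WT-C replicate 1 was highest in the sum and lowest in Slc2a9. In WT-D replicate 2 was highest in both, but replicate 3 was lowest in the sum and replicate 1 in Slc2a9. The part of these markers in the result was not tested.

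The remaining carriers are those known for insulin-regulated uptake. Slc2a4 (ENSMUSG00000018566, chromosome 11, 69942539 to 69948188, minus strand), the gene of GLUT4 of muscle and fat, had 34.3, 24.9 and 18.0 CPM in WT-C and 37.7, 33.9 and 37.3 CPM in WT-D. In KO-C it had 30.5, 34.4 and 19.6 CPM and in KO-D 29.9, 37.9 and 29.1 CPM. The groups overlapped, and the averaged change of 0.39 (SE 0.17, adjusted p = 0.0758) did not pass the test. Without WT-C replicate 1 it was 0.51 and did (adjusted p = 0.0188), as it did without KO-C replicate 2 (0.49, adjusted p = 0.0362) and with upper-quartile scaling (0.46, adjusted p = 0.0480). The change in the wild type was 0.54 (adjusted p = 0.111), and 0.74 without WT-C replicate 1, where it was called (adjusted p = 0.0434). RNA of fat varied between libraries: Adipoq, the adipocyte hormone adiponectin, was at 24.8 CPM in WT-D replicate 1 and at 0 to 1.74 CPM in the other 11, while Slc2a4 in that library was 37.7 CPM against 33.9 and 37.3 CPM in the other WT-D libraries. The summed level of the 3 skeletal muscle markers Ckm, Acta1 and Myh4 was 0 to 0.717 CPM. The part of fat and muscle RNA in the level of Slc2a4 was not tested. Slc2a12 (ENSMUSG00000037490, chromosome 10, 22645011 to 22704285, plus strand), the gene of GLUT12, had 4.68, 9.56 and 7.95 CPM in WT-C and 8.40, 8.35 and 8.36 CPM in WT-D. In KO-C it had 6.93, 9.68 and 10.9 CPM and in KO-D 11.4, 7.68 and 7.61 CPM, with overlap in every comparison and an averaged change of 0.10 (adjusted p = 0.694). It shares 9.61% of its exon bases with Tbpl1 on the other strand, whose level of 7.91 to 11.6 CPM was of the same order.

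The further members of the Slc2a family were mostly of low level. Of 6 other Slc2a genes 5 were tested. With diabetes averaged over genotypes 3 were higher and 1 lower, where 43.5% of all genes were called, and their median change was 0.96 against 0.01 for all genes. Slc2a3, the gene of GLUT3 of neurons and leukocytes, rose from 0.308 to 0.532 CPM in WT-C and 0.290 to 0.349 CPM in KO-C to 0.653 to 0.952 CPM in WT-D and 0.569 to 1.04 CPM in KO-D (averaged change 0.96, adjusted p = 0.00237). Slc2a6, a carrier of the lysosome, was higher by 1.36 (adjusted p = 0.00345), and Slc2a10 by 1.29 (adjusted p = 0.00337), both at levels of 2.11 CPM or less. As a sum the 6 leukocyte markers moved with these genes. The sum was 5.86 to 11.1 CPM in the controls of both genotypes and 21.3 to 54.2 CPM in the diabetic libraries. The lymphocyte markers Cd79a and Cd3e by themselves overlapped. Cd79a was 0.254 to 0.290 CPM in KO-C and 0.190 to 0.416 CPM in KO-D. Cd3e was 0.0280 to 0.340 CPM in WT-C and 0.275 to 0.371 CPM in WT-D. The part of leukocytes in the rise of Slc2a3 and Slc2a6 was not tested. Slc2a8 fell in the knockout by 1.24 (adjusted p = 0.00299), from 6.49 to 9.95 CPM in KO-C to 3.00 to 4.40 CPM in KO-D, and its change in the wild type was -0.06 (adjusted p = 0.891). Slc2a8 was also the only one of these genes called between KO-D and WT-D.

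Of 10 other genes, the rest of the Slc5a family and the sugar exporter gene Slc50a1, 8 were tested, and the averaged diabetes comparison called 1 higher and 1 lower, a share below the 43.5% of all genes, with a median change of -0.22 against 0.01. Slc5a3, the myo-inositol carrier SMIT1 that cells raise under osmotic load, was 46.0 to 56.6 CPM in WT-C and 71.4 to 191 CPM in WT-D, a change of 1.19 (adjusted p = 0.0316). It was 87.4 to 115 CPM in KO-C and 94.6 to 275 CPM in KO-D, a change of 0.77 (adjusted p = 0.117). Slc5a8, a carrier of lactate and other monocarboxylates, fell by 0.66 in the wild type (adjusted p = 0.0256), from 481 to 624 CPM to 285 to 397 CPM. In the knockout its change was -0.22 (adjusted p = 0.414). Slc5a12, which shares the early proximal tubule with Slc5a2, was not called in either genotype.

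Of 13 genes of partners and regulators of these carriers, all tested, diabetes averaged over genotypes called 3 higher and 5 lower, beside 21.9% and 21.6% of all genes, with a median change of -0.17 against 0.01. Pdzk1ip1, which encodes MAP17, the small membrane protein that SGLT2 needs for its activity, was lower in both genotypes. It was 553 to 576 CPM in WT-C and 340 to 479 CPM in WT-D (change -0.56, adjusted p = 0.0256), and 472 to 553 CPM in KO-C and 226 to 262 CPM in KO-D (change -1.03, adjusted p = 5.07e-04). Fxyd2, the gamma subunit of the Na,K-ATPase, fell by 1.24 in the knockout (adjusted p = 0.00169). As a sum the late proximal tubule markers moved with Pdzk1ip1 in both genotypes and with Fxyd2 in the knockout, though Cyp7b1 by itself overlapped. The sum went from 3826 to 4251 CPM in WT-C to 1531 to 2952 CPM in WT-D. In the knockout it went from 3576 to 4229 CPM in KO-C to 1074 to 1570 CPM in KO-D. The part of these markers in the result was not tested. Arrdc4, an arrestin that withdraws glucose carriers from the surface and answers to glucose, was higher in both genotypes, by 0.78 (adjusted p = 0.00512) and 1.01 (adjusted p = 5.66e-04). Its relative Txnip was higher in the wild type by 0.72 (adjusted p = 0.0401), and its change in the knockout was 0.06. Sgk1, a kinase that stimulates sodium-coupled carriers, was higher by 1.26 in the wild type (adjusted p = 0.0176). In none of these genes did the difference of the diabetes effect pass the test. Sgk1 and Txnip were named after their values were seen.

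Of 7 genes of the first steps that sugar meets inside the cell, 6 were tested, and the averaged diabetes comparison called 2 higher and 3 lower, beside 21.9% and 21.6% of all genes, with a median change of -0.21 against 0.01. Khk, ketohexokinase, which phosphorylates the fructose that carriers such as GLUT5 bring in, was 690 to 789 CPM in WT-C and 308 to 622 CPM in WT-D, a change of -0.85 (adjusted p = 0.0162). In the knockout it fell by 1.90 (adjusted p = 1.09e-04), from 632 to 706 CPM in KO-C to 155 to 209 CPM in KO-D. G6pc, glucose-6-phosphatase, fell by 1.30 on average (adjusted p = 0.00315), and by 1.68 in the knockout (adjusted p = 0.00823). The marker sums of the whole proximal tubule and its late segment, given above, were lower in KO-D as well, and their part in these changes was not tested. The hexokinases moved the other way. Hk1 was 21.7 to 39.8 CPM in WT-C and 52.2 to 83.7 CPM in WT-D (change 1.12, adjusted p = 0.00988), and Hk2 rose by 2.00 on average from a low level, 0.0841 to 0.469 CPM in controls and 0.860 to 2.44 CPM in diabetic libraries (adjusted p = 1.59e-04). As sums, markers of cells outside the proximal tubule moved with Hk1 and Hk2. The sum of 5 endothelial markers was 66.1 to 153 CPM in controls and 150 to 223 CPM in diabetic libraries. That of 5 fibroblast and smooth muscle markers was 25.2 to 38.8 CPM and 53.4 to 106 CPM. In the knockout Cdh5, Emcn, Pdgfra and Col1a1 by themselves overlapped. The part of these markers in the result was not tested.

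For each transporter called in any comparison, the genes whose centred log2 level ran closest to it over the 12 libraries were found by the root mean square of the differences. For Slc5a2 these were Slc34a3 at 0.38, Slc34a1 at 0.39 and Clec2h at 0.42, beside an SD of Slc5a2 itself of 1.02. Slc34a1 and Slc34a3 encode the sodium-phosphate carriers of the proximal tubule brush border. Slc34a1 was 610 CPM in KO-D replicate 2 and 2761 to 3421 CPM in KO-C, so the library lowest in Slc5a2 was also the lowest in Slc34a1. For Slc5a10 they were Gltp at 0.14, Slc23a1, a vitamin C carrier, at 0.18, and Pmm1, a phosphomannomutase, at 0.18. For Slc2a5 they were Adgrg4 at 0.12, Ergic3 at 0.13 and Dnpep at 0.13, beside its own SD of 0.50. Slc5a9 ran closest to Nhsl2, Tmem150c and Rnf217, and Slc2a9 to Pde11a, Ank3 and Tgfbr1. These distances describe the same 12 libraries and carry no test.

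**Figure D5:**
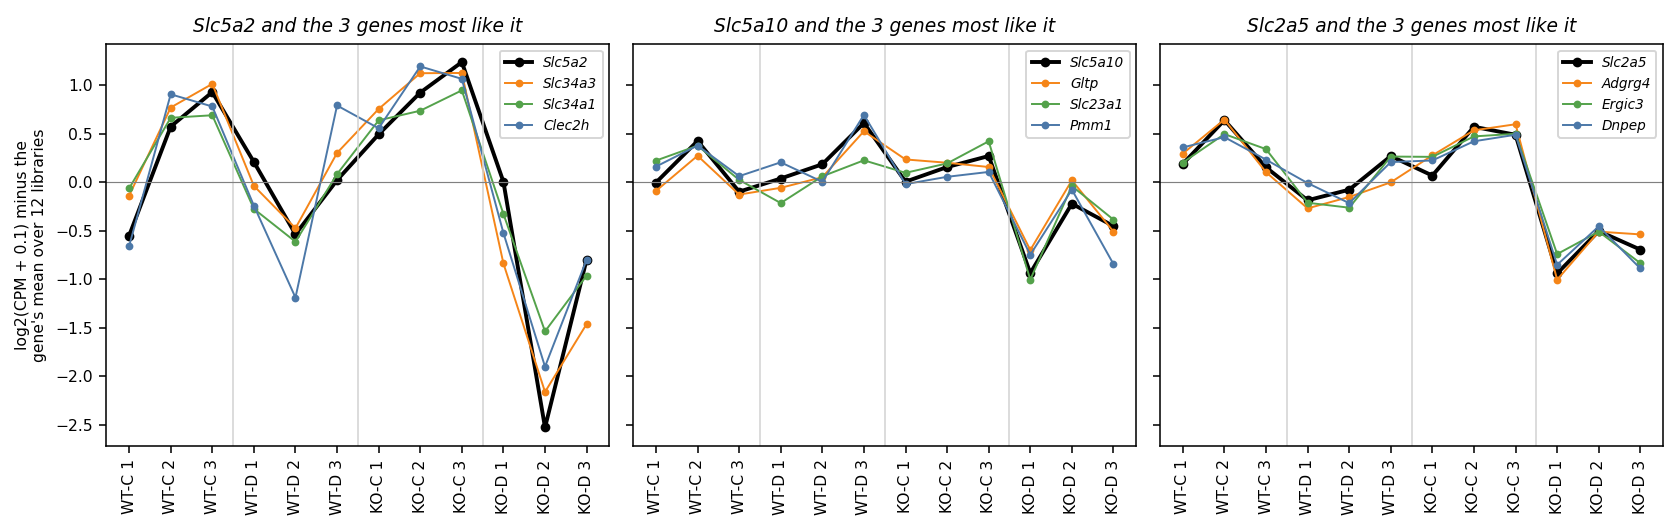
Centred log2(CPM + 0.1) in the 12 libraries for Slc5a2, Slc5a10 and Slc2a5 (black) and the 3 genes most like each (colours), with grey lines between groups. The Slc5a2 profile dips furthest in KO-D replicate 2, as do those of Slc34a3, Slc34a1 and Clec2h, and the Slc2a5 profiles are below 0 in all 3 KO-D libraries.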

How the data were processed

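The authors aligned reads with STAR 2.7.3a to mm10 and counted them per gene (R 3.6.1, edgeR 3.28.0), and the deposited values are CPM that sum to 1000000 in each library. A second deposited table holds the authors' log2 fold changes and adjusted p-values of 5 comparisons and was not used. All 298586 CPM values above 0 came out as whole reads within 0.01 when divided by the smallest value of their library, and these recovered reads served the filter, TMM and the edgeR and DESeq2 alternatives alone. Genes were kept by filterByExpr (10 reads, 15 in total), which left 18461 and dropped 36960.

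The main test was limma 3.58.1 (R 4.3.3, edgeR 4.0.16, DESeq2 1.42.0) on log2(TMM-scaled CPM + 0.1), which understates the change of low genes, with 4 group means over all 12 libraries and Benjamini-Hochberg adjustment. It was tested on simulated data. Ratios used exact permutations within genotype, which cannot give a p below 0.005. Intervals cover the spread between mice, pooled over the groups. On recovered reads edgeR called 4141 genes in the wild type, 5576 in the knockout and 8033 on average, DESeq2 called 5221, 6117 and 8421, and limma called 4055, 5734 and 8025. Exon lengths and overlaps came from GENCODE M21, whose positions equalled those of the deposited table for all 10 genes, and promoters from RefSeq, which had entries for 7 of 10 genes. For 6 of them at least 100 bases lay before the gene's bounds in the deposited table, and shorter windows, among them a second entry of Slc5a10, were not used. Alternatives were RLE, upper-quartile and no scaling, pseudocounts of 0.5 and 1, other filters, edgeR, DESeq2, the compared groups alone, a replicate block, and each library left out. Leaving out WT-C replicate 1 with KO-D replicate 2 was added after seeing the data. The 10 genes, the lists and the rule (all 10, up to 4 called genes per list with the smallest p, and 3 most alike genes) were chosen with earlier results of these data known. Overlapping genes were named for their exons. Some genes of the lists are not reported here by name.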

Additional observations from a re-analysis of the deposited data

How the results depend on the processing

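Of 947 single-gene values under alternatives, 818 kept their direction and their side of the threshold. These include genes that were not called in the main fit, so the share does not measure how stable the calls are. Of 218 values for the counts of called transporters and the ratios, 159 were taken as the same, which allows a count to differ a little. Of the rest 40 counts moved, 16 ratios lost their call and 3 ratios turned sign. Without scaling between libraries the median of all genes lay at 0.42 in the wild type, 0.35 in the knockout and 0.36 on average (0.05, 0.02 and 0.01 with TMM), so upward moves of that size are shared by all genes. Without scaling Slc2a2 turned to 0.12 and Slc2a5 to 0.057 in the wild type, Slc2a12 to 0.30 in the knockout, and Slc5a10 to 0.11, Slc2a1 to 0.13 and Slc2a2 to 0.020 on average. Slc2a12 in the knockout turned to 0.094 with upper-quartile scaling and to 0.020 with a mean of at least 1 CPM.

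With diabetes in the wild type the count of called transporters, 1, became 3 without scaling (26.2% of all genes called) and 0 with RLE scaling (23.1%), no filter (9.01%), the compared groups alone (15.5%) or a threshold of 0.01 (8.33%). In the knockout 3 became 1 at 0.01, and on average 4 became 1 at 0.01, 5 with upper-quartile scaling, which gained Slc2a4 (adjusted p = 0.0480), and 3 with no filter, which lost Slc5a9 (0.41, adjusted p = 0.0520). For KO-D against WT-D, 2 became 1 with RLE scaling (4.38% of all genes) and 0 with upper-quartile scaling (3.41%), no scaling (0.748%), no filter (2.33%), the compared groups alone (0%) or 0.01 (0%). For KO-D against WT-C, 4 became 2 with no filter (19.4%) and 1 with the compared groups alone (38.8%) or at 0.01 (23.4%), and a mean of at least 1 CPM gained Slc2a9 (adjusted p = 0.0419). Equal counts hid exchanges. Without scaling, KO-D against WT-C lost Slc5a2, Slc5a10 (-0.11, adjusted p = 0.704) and Slc2a5 (-0.51, adjusted p = 0.0631) and gained Slc2a9 (1.06), Slc2a4 (0.90) and Slc2a12 (0.82), and the average lost Slc5a2 and Slc2a5 and gained Slc5a1 and Slc2a4. With upper-quartile scaling the knockout lost Slc5a10 and gained Slc2a9, as it did without scaling. For KO-D against WT-C, upper-quartile scaling and DESeq2 lost Slc5a2 and gained Slc2a9, and edgeR lost Slc5a2. A fit of the compared groups alone holds fewer samples, and the other causes were not tested.

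With libraries left out singly, or WT-C replicate 1 and KO-D replicate 2 together, the counts ranged from 0 to 2 in the wild type, 2 to 5 in the knockout, 2 to 5 on average, 0 to 2 for KO-D against WT-D and 2 to 5 for KO-D against WT-C, and were 0 for KO-C against WT-C and for the contrast of the diabetes effects. The ratio of Slc5a1 to Slc5a2 ranged from 0.90 to 1.69, that of Slc5a2 to Slc2a2 from -1.01 to -0.68 and that of Slc2a1 to Slc2a2 from -0.20 to 0.36, with 200 arrangements in place of 400 when 1 library is left out. The changes that turned sign ranged from -0.15 to 0.24 for Slc2a1, -0.010 to 0.27 for Slc5a1 and -0.092 to 0.46 for Slc2a12 in the wild type, from -0.036 to 0.32 for Slc5a1, -0.018 to 0.43 for Slc2a4 and -0.24 to 0.088 for Slc2a12 in the knockout, and from -0.047 to 0.23 for Slc2a12 on average.

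Mice with the same replicate number did not deviate together (correlations of -0.35 to 0.29), so the numbers were not taken as pairs. With a replicate block the transporters called were 1, 3, 4, 0, 2, 4 and 0 in the 7 comparisons, as without it, and 509 in place of 1021 genes were called between KO-D and WT-D.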
